A study of Mus musculus with 4 samples.

Results

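Nucleotide, serine and one-carbon synthesis was followed through 36 genes for enzymes of purine, pyrimidine, serine, folate and polyamine synthesis. They were picked by name for what their products do, and each symbol matched a single identifier among the 34866 genes of the table. All 36 passed the filter on low values, a level of at least 1 TPM (transcripts per 1000000) in at least 2 libraries, which kept 11339 genes for testing.

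The libraries came from λ-MYC Tom+/ki mice. These carry a MYC gene taken from a human Burkitt lymphoma, driven by regulatory sequences of the λ light chain, together with a Cre allele and a Cre-dependent tdTomato reporter at Rosa26. A cell is therefore Tom+ if it or an ancestor has expressed the Cre, whether or not it still does. Spleen cells of 2 mice with an IgM+ Tom+ tumor (#1 and #2) were sorted into B220+ IgM+ Tom+ and B220+ IgM+ Tom- cells, which gave 4 libraries of polyA RNA, 1 of each kind from each mouse. All 4 carry the transgene, the Cre and the reporter, no library came from a mouse without them, and ages were not given for these samples. The purpose of the experiment was to compare lymphoma cells with and without this history.

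A dividing cell both salvages nucleotides and makes them anew. Both the purine and the pyrimidine route use phosphoribosyl pyrophosphate (PRPP). Ribonucleotide reductase then makes deoxynucleotides (dNTPs) for DNA. Serine feeds the folate cycle, which donates single carbon units to purines and to thymidylate. Genes of these routes, with ornithine decarboxylase of the polyamine route, are textbook targets of MYC.

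TPM values sum to 1000000 in each library and hold no record of read number, so depth is unknown. The B cell label held, as all 7 B cell markers examined were measured in every library, with a summed level of 2205 to 5585 TPM. Summed markers of T cells reached 0.398 to 8.27 TPM and those of myeloid cells 0.593 to 8.77 TPM. Those of erythroid cells reached 0.619 to 21.5 TPM and those of plasma cells 13.8 to 231 TPM. The 231 TPM, in tumor #2 Tom+ cells, was mostly Jchain at 209 TPM, followed by Xbp1 at 21.2 TPM. Sdc1, Prdm1 and Tnfrsf17 were at 0.428, 0.570 and 0.390 TPM there. The mitochondrial share of TPM was 6.61% and 8.67% in tumor #1 and 14.4% and 15.6% in tumor #2, and nuclear protein-coding genes held 50.4% to 55.6%. Pseudogenes held 31.3% and 30.3% in tumor #1 and 25.4% and 23.4% in tumor #2.

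The 36 genes were well expressed in all 4 libraries. Their mean level ran from 14.3 TPM for Gmps to 956 TPM for Impdh2, with a median of 68.2 TPM against 12 TPM over all tested genes. Together they took 0.437% and 0.454% of TPM in tumor #1 Tom- and Tom+ cells, and 0.336% and 0.341% in tumor #2. Tom+ and Tom- cells of a mouse thus lay close together, and the sums of the tumors lay apart, with a ratio of tumor #2 to tumor #1 of 0.761.

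**Figure D1:**
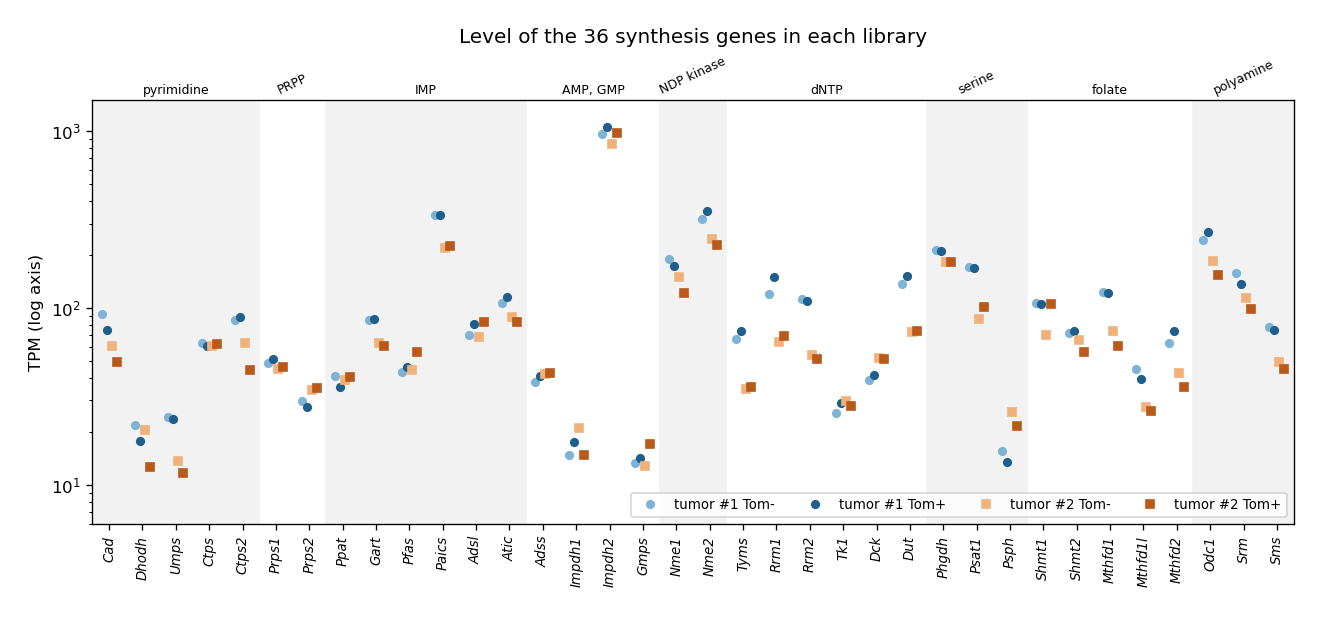
TPM on a log axis of the 36 genes, ordered by pathway step, with 1 point per library (circles for tumor #1, squares for tumor #2, dark for Tom+). Impdh2 stands highest at 840 to 1052 TPM, and at Tyms, Rrm1, Rrm2 and Dut the squares sit clear below the circles.

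Tom+ and Tom- cells differed little in these genes. None of the 36 passed an adjusted p-value of 0.05 when limma was run with the mouse as a blocking term, and 0% of all tested genes did. At an unadjusted p-value of 0.05, 0 of the 36 were called, against 4.67% of all tested genes (2.04% higher and 2.64% lower in Tom+ cells). The smallest unadjusted p-value among them was 0.0858, for Dhodh, and their adjusted p-values from limma with Benjamini-Hochberg correction began at 0.936.

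Levels were above those of Tom- cells in both tumors for 9 of the 36, against 21.6% of all tested genes, below in both for 10, against 29.5%, and opposite in the tumors for 17. The 9 (Prps1, Pfas, Adsl, Adss, Impdh2, Gmps, Tyms, Rrm1 and Dut) kept this under all 4 other scalings of the libraries tried, and of the 10 (Cad, Dhodh, Umps, Nme1, Rrm2, Psph, Mthfd1, Mthfd1l, Srm and Sms) Rrm2, Mthfd1 and Mthfd1l did not under at least 1. The median log2 difference, Tom+ minus Tom-, was 0.02 in tumor #1 and -0.06 in tumor #2, close to the medians of all tested genes (-0.0029 and -0.06). The absolute mean difference was under 0.25 on the log2(TPM + 1) scale for 33 of the 36, against 7247 of the 11339 tested genes. Its median was 0.09 against 0.18 over all tested genes. These were not matched for level, with a median of 68.2 TPM for the 36 and 12 TPM for all tested genes. With 2 mice and 1 residual degree of freedom, a small difference was not detectable. Larger ones did not pass the adjusted threshold either, as mean differences among all tested genes reached 6.01 in size. The lack of adjusted calls among the 36 is therefore no measure of how small their differences are.

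**Figure D2:**
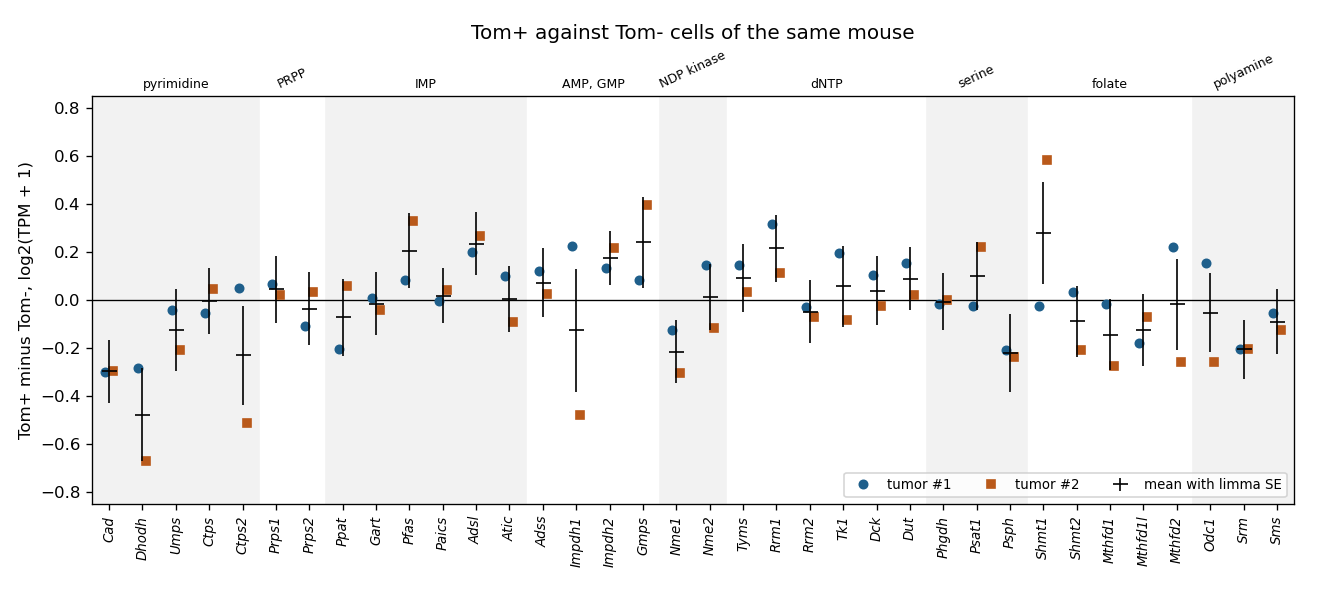
Tom+ minus Tom- on the log2(TPM + 1) scale for each gene in tumor #1 (circles) and tumor #2 (squares), with the mean and its limma standard error (black). Most points lie within 0.25 of 0, and Dhodh at -0.29 and -0.67 is the gene farthest from 0 on average.

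Libraries of these genes differed more between the tumors than between the cells sorted from them, as they did for most genes. The tumor difference, taken as the mean log2(TPM + 1) of both tumor #2 libraries minus that of both tumor #1 libraries, exceeded the Tom difference in size for 30 of the 36 genes (83.3%), against 76.5% of all tested genes. Both tumor #2 libraries lay below both tumor #1 libraries for 23 of the 36 (63.9%), against 23.7% of all tested genes, and above them for 4 (Prps2, Adss, Dck and Psph), against 44.8%. The libraries of the tumors overlapped for the other 9 genes. The median difference of the 36 was -0.38, whereas that of all tested genes was 0.20. Each tumor is 1 mouse, so these values are a description with no test, and the mouse, its tumor and the handling of its samples cannot be told apart.

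These counts depend in part on how the libraries are scaled. Trimmed-mean scaling shifted the median of all tested genes by -0.31, quantile normalization by -0.28 and the use of nuclear protein-coding genes only by 0.10. Of the 23 genes lower in tumor #2, 21 stayed so under all 4 other scalings (Prps1 and Shmt1 did not), and of the 4 higher genes only Psph did. Relative to the median of all tested genes, the median of the 36 was -0.59 as measured and -0.62 to -0.34 under the other 4. The B cell markers went the other way, with all 7 higher in tumor #2 and a median difference of 1.13. The mitochondrial share was higher there too, and the pseudogene share was lower. The part of these in the result was not tested, and in bulk cells a smaller number of cells with a transcript and less of it per cell cannot be told apart.

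**Figure D3:**
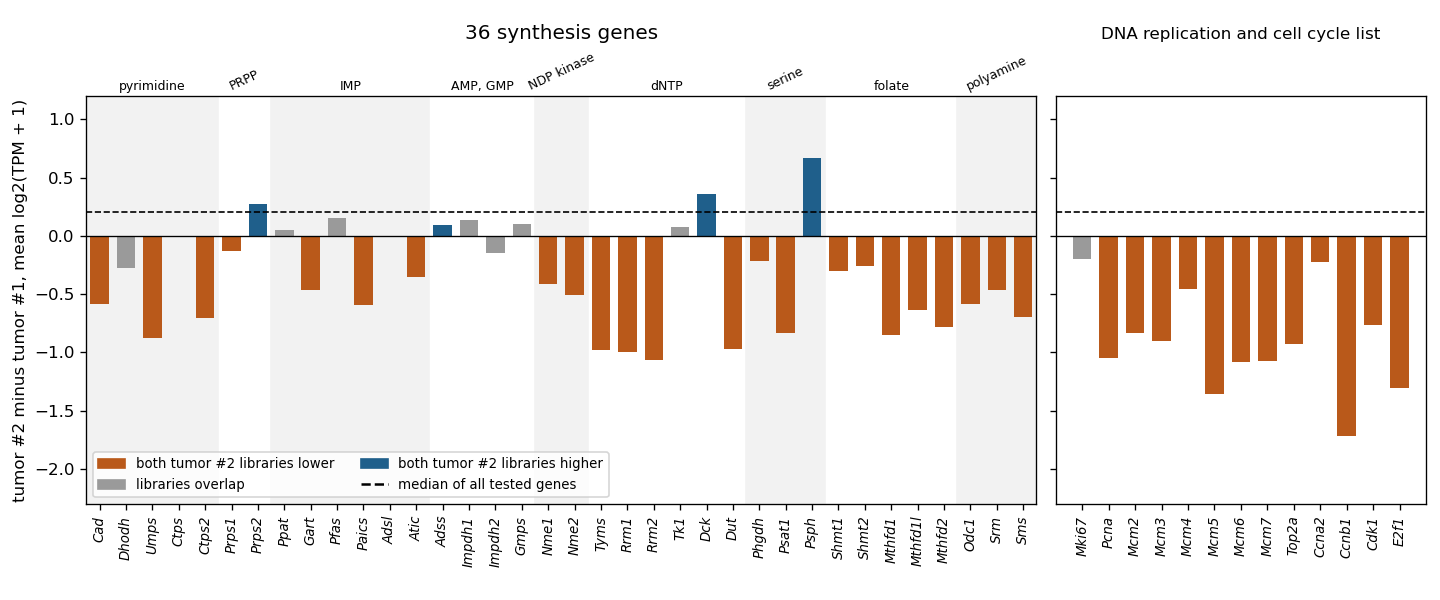
Tumor #2 minus tumor #1 in mean log2(TPM + 1) for the 36 genes (left) and 13 DNA replication and cell cycle genes (right). Orange bars mark genes with both tumor #2 libraries lower, blue bars both higher, gray bars overlap, and the dashed line is the median of all tested genes, 0.20. Tyms, Rrm1, Rrm2 and Dut reach -0.97 to -1.06.

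The dNTP enzymes held the widest gap between the tumors. Rrm2 (chr12:24708241-24714146), the small subunit of ribonucleotide reductase, was at 112 TPM in tumor #1 Tom- and 110 in Tom+ cells, against 54.0 and 51.4 TPM in the respective cells of tumor #2. Rrm1 (chr7:102441695-102469771), the large subunit, was at 119 and 149 TPM in tumor #1 against 63.9 and 69.2 in tumor #2. For both subunits the tumors did not overlap, and the ratio of mean TPM, tumor #2 to tumor #1, was 0.475 for Rrm2 and 0.495 for Rrm1.

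Tyms (chr5:30058202-30073617), thymidylate synthase, which methylates dUMP with a folate carbon, showed the same order at 66.9 and 74.2 against 34.8 and 35.7 TPM. Dut (chr2:125247190-125258608), the dUTPase that supplies dUMP and keeps uracil out of DNA, was at 137 and 153 TPM in tumor #1 against 72.8 and 74.0 in tumor #2. Their ratios were 0.50 and 0.507. The log2 differences of these 4 genes were -1.06 for Rrm2, -1.0 for Rrm1, -0.98 for Tyms and -0.97 for Dut. Relative to the median of all tested genes they stayed between -1.30 and -0.95 under every scaling. Only Rrm2 passed 2-fold on this scale, against 5.1% of all tested genes lower by that much without overlap, and 0 of the 36 were higher by 2-fold without overlap, against 16.2%.

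Salvage enzymes of the dNTP group did not share this order in the values as deposited. Tk1, thymidine kinase of dividing cells, was at 25.4 and 29.2 TPM in tumor #1 against 29.7 and 28.0 in tumor #2, with overlap. Its order depended on the scaling, lower in both tumor #2 libraries under trimmed-mean scaling and higher in both when immunoglobulin genes were left out or nuclear protein-coding genes alone were used. Dck, deoxycytidine kinase, ranged from 39.0 to 52.5 TPM and was higher in both tumor #2 libraries as deposited, though not under trimmed-mean scaling. Between Tom+ and Tom- cells, Rrm1 had the largest mean log2 difference of the group, 0.22 with a standard error (SE) of 0.14 (unadjusted p = 0.212 by limma), and the other 5 lay between -0.05 and 0.09.

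Upstream sequence was set side by side for 4 of these genes, the 3 lower ones with free upstream sequence in the annotation and Dck, which was not lower. Each run ends at the RefSeq start or at the first annotated exon before it, from the RefSeq promoter windows of GRCm38.p6: Tyms chr5:30073626-30073875 on the minus strand, Rrm1 chr7:102441445-102441694, Rrm2 chr12:24708004-24708240 and Dck chr5:88764763-88764995 on the plus strand. Capitals mark CACGTG, the E-box bound by MYC with MAX, and CCAAT, the motif of NF-Y, read on either strand.
Tyms: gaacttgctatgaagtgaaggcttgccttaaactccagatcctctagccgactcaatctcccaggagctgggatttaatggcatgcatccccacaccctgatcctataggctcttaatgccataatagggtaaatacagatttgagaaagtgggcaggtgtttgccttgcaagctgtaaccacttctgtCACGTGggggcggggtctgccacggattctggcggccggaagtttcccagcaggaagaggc
Rrm1: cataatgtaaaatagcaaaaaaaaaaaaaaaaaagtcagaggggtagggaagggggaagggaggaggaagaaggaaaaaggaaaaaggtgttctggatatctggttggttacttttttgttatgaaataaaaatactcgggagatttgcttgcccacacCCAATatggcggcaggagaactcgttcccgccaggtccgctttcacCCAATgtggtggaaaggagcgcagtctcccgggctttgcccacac
Rrm2: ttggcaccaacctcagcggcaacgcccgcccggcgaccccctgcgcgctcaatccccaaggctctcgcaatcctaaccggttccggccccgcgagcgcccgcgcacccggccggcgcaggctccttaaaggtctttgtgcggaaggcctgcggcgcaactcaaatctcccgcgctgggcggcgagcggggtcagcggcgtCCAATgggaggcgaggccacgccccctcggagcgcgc
Dck: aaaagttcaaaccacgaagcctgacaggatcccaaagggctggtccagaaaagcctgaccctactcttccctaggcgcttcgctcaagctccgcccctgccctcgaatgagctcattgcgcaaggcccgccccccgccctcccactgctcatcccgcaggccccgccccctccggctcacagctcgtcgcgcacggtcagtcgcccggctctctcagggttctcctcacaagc

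The E-box of Tyms began 61 bases before the RefSeq start. The CCAAT motifs of Rrm1 began 91 and 45 bases before the start and that of Rrm2 50 bases before it, and none of the motifs overlapped another. The third motif searched was TTTNNCGC, a form of the E2F site, which is not in the 4 printed runs. The whole window of Tyms holds 1 match to it, which is not contained in the printed run. Dut, which was also lower in tumor #2 and is not printed, has none of the motifs in its window, like Dck. Whether a motif goes with the order of the tumors was not tested. Over whole windows of 300 bases, which reach 50 bases past the start, CACGTG was in 6 of the 33 synthesis genes that have a window (18.2%), namely Atic, Impdh2, Nme1, Paics, Sms and Tyms, and in 8.09% of 27025 genes. TTTNNCGC was in 8 of the 33 (24.2%), namely Nme1, Ppat, Prps1, Prps2, Psph, Shmt2, Sms and Tyms, and in 5.93% of all genes. CCAAT was in 15 of the 33 (45.5%) and in 41.1% of all genes. A match is a description of letters and shows no binding.

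DNA replication and cell cycle genes had the same order between the tumors as these dNTP enzymes. Of 13 such genes, 12 were lower in both tumor #2 libraries, against 23.7% of all tested genes, and Mki67 overlapped. Their median difference was -0.92. Ccnb1, the mitotic cyclin B1, was at 79.4 and 71.4 TPM in tumor #1 against 25.8 and 19.0 in tumor #2. Cdk1, its kinase partner, was at 195 TPM in both tumor #1 libraries, against 95.4 and 137 in tumor #2. Between Tom+ and Tom- cells 0 of the 13 passed an unadjusted p-value of 0.05 in limma. The dNTP group and this list had medians of -1.18 and -1.13 relative to all tested genes, the lowest of the pathway lists examined.

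Pyrimidine synthesis was lower in both tumor #2 libraries for 3 of its 5 genes, against 23.7% of all tested genes. All 5 were lower under trimmed-mean scaling or quantile normalization, which also shifted the median of all tested genes downward. Cad, the trifunctional enzyme of the first 3 steps and a known MYC target, was at 92.1 TPM in Tom- and 74.7 TPM in Tom+ cells of tumor #1, against 60.9 and 49.5 in tumor #2. It was therefore lower in Tom+ cells by a like amount in each tumor, and the mean log2 difference was -0.30 (SE 0.13, unadjusted p = 0.104 by limma). Dhodh, the mitochondrial dihydroorotate dehydrogenase, was at 21.8 and 17.7 TPM in tumor #1 against 20.6 and 12.6 in tumor #2. Its difference of -0.48 (SE 0.19, unadjusted p = 0.0858 by limma) was the largest among the 36 genes. Neither passed the adjusted threshold.

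Umps, which finishes UMP, had one of the wider tumor gaps at 24.3 and 23.6 against 13.6 and 11.6 TPM, a log2 difference of -0.88. The CTP synthases Ctps and Ctps2 behaved differently from each other. Ctps was nearly level at 60.7 to 63.1 TPM in all 4 libraries as deposited. Under trimmed-mean scaling or quantile normalization it was lower in both tumor #2 libraries. Ctps2 was at 85.7 and 88.9 TPM in tumor #1 against 63.7 and 44.3 in tumor #2, its lowest value in Tom+ cells. Its Tom difference was 0.05 in tumor #1 and -0.51 in tumor #2.

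PRPP synthetases, which make the PRPP used by both routes, were among the steadiest genes. Prps1 stood at 49.0, 51.3, 45.4 and 46.1 TPM in tumor #1 Tom-, tumor #1 Tom+, tumor #2 Tom- and tumor #2 Tom+ cells, the order used from here on. Prps2 stood at 29.9, 27.7, 34.5 and 35.4 TPM and was higher in tumor #2 by 0.27 on the log2 scale, though not without overlap under trimmed-mean scaling or quantile normalization. The Tom difference was 0.04 (SE 0.14) for Prps1 and -0.04 (SE 0.15) for Prps2.

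In the route from PRPP to IMP, levels differed widely between steps. Paics, the bifunctional enzyme of the middle steps, was at 335, 335, 219 and 225 TPM, equal between sorted cells and lower in tumor #2 by 0.59 on the log2 scale. Ppat, the amidotransferase that commits PRPP to purines, ranged from 35.7 to 41.3 TPM. The genes start head to head on chr5 and overlap by 272 bases on opposite strands, and the TPM ratio of Paics to Ppat was 8.12 and 9.37 in tumor #1 and 5.62 and 5.55 in tumor #2. Adsl, which acts in both the IMP and the AMP steps, was at 70.7, 81.4, 68.8 and 83.0 TPM. It was higher in Tom+ cells of both tumors, by 0.23 (SE 0.13, unadjusted p = 0.168 by limma), and did not differ by tumor beyond the spread of its libraries. The remaining enzymes ranged from 61.2 to 86.4 TPM (Gart), 43.5 to 56.1 TPM (Pfas) and 83.8 to 115 TPM (Atic), and Gart and Atic were lower in both tumor #2 libraries.

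At the branch to AMP and GMP, Impdh2 (chr9:108560286-108565584), the rate-limiting enzyme of GMP synthesis, was the highest of all 36 genes at 958, 1052, 840 and 976 TPM. Tom+ exceeded Tom- cells in both tumors, by a mean of 0.18 (SE 0.11, unadjusted p = 0.208 by limma), and the tumors overlapped. Gmps, the next step, was the lowest of the 36 at 13.3, 14.1, 12.8 and 17.1 TPM, and its Tom difference was 0.24 (SE 0.19). Impdh1, the minor isoform, was at 14.7, 17.4, 21.1 and 14.8 TPM. It lay above Tom- cells in tumor #1 and below them in tumor #2. Adss, which turns IMP toward AMP, ranged from 38.0 to 42.9 TPM. The median tumor difference of this branch was 0.10, or -0.10 relative to all tested genes, the smallest shift in size of any pathway step on that relative scale.

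The nucleoside diphosphate kinases, which carry out the last phosphorylation to triphosphates, were lower in tumor #2. Nme1 was at 188, 172, 149 and 121 TPM and Nme2 at 319, 354, 246 and 227 TPM. Tom+ cells had less Nme1 in both tumors, by 0.22 on average (SE 0.13, unadjusted p = 0.191 by limma), whereas Nme2 went opposite ways. Nme2 shared 46.5% of its 60-base words, the length of a read, with other annotated genes, so its split from a readthrough transcript and 3 pseudogenes is uncertain.

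Serine synthesis held genes of both tumor orders. Phgdh, the first enzyme, was at 212, 210, 182 and 182 TPM, nearly equal between sorted cells. Psat1, the transaminase of the next step, was at 170, 167, 87 and 102 TPM, lower in tumor #2 by 0.83 on the log2 scale. Psph, the phosphatase that releases serine, went the other way at 15.6, 13.4, 25.7 and 21.6 TPM, and its log2 difference of 0.67 was the largest positive tumor difference of the 36 and kept its order under every scaling. The TPM ratio of Psat1 to Psph was 10.9 and 12.5 in tumor #1 and 3.39 and 4.70 in tumor #2. In Tom+ cells Psph was lower in both tumors, by 0.22 on average (SE 0.16, unadjusted p = 0.258 by limma).

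All 5 genes of the folate cycle were lower in both tumor #2 libraries, against 23.7% of all tested genes. Their median difference was -0.63. Mthfd1, the trifunctional cytosolic enzyme, was at 122, 121, 73.9 and 60.9 TPM, a log2 difference of -0.85. Mthfd2, its mitochondrial counterpart in dividing cells, was at 63.2, 73.8, 43.1 and 35.9 TPM, a difference of -0.78. Mthfd1l, which releases formate from mitochondria, was at 45.1, 39.7, 27.6 and 26.3 TPM. Within each tumor the sorted cells lay closer together than the tumors did for these 3 genes.

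The serine hydroxymethyltransferases, which pass the carbon of serine to folate, had smaller gaps. Shmt2, the mitochondrial form, was at 72.3, 73.9, 65.6 and 56.6 TPM. Shmt1, the cytosolic form, was at 107, 105, 70.0 and 105 TPM, so that tumor #2 Tom- cells stood alone and the other 3 libraries were level. The Tom difference of Shmt1 was -0.03 in tumor #1 and 0.58 in tumor #2 (mean 0.28, SE 0.21, unadjusted p = 0.274 by limma). Its place below tumor #1 rests on that library, and was lost when immunoglobulin genes were left out or nuclear protein-coding genes alone were used.

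All 3 polyamine genes were lower in both tumor #2 libraries, against 23.7% of all tested genes. Odc1 (chr12:17544794-17551505), ornithine decarboxylase, the entry step and a classic MYC target, was at 241, 268, 185 and 154 TPM, with a Tom difference of 0.15 in tumor #1 and -0.26 in tumor #2. Spermidine synthase, Srm, ranged from 98.3 to 157 TPM and was lower in Tom+ cells by 0.20 in each tumor. Spermine synthase, Sms, ranged from 45.2 to 78.4 TPM.

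Pairs of related enzymes kept a steady balance in some cases and not in others. Impdh2 made up 97.6% to 98.5% of the summed TPM with Impdh1 in the 4 libraries. Nme2 held 62.2% to 67.3% with Nme1, and Mthfd1l 24.7% to 30.1% with Mthfd1. Prps2 held 37.9% and 35.1% with Prps1 in tumor #1 and 43.2% and 43.4% in tumor #2.

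The CTP synthases and the hydroxymethyltransferases varied most. Ctps2 held 57.6% and 59.4% of its pair in tumor #1, 51.2% in tumor #2 Tom- cells and 41.4% in tumor #2 Tom+ cells. The larger share thus passed from Ctps2 to Ctps in the last library. Shmt2 held 40.3% and 41.2% in tumor #1, 48.4% in tumor #2 Tom- and 35.0% in tumor #2 Tom+ cells, with Shmt1 the larger in all 4. These shares have no test, and TPM shares carry no counting error here.

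**Figure D4:**
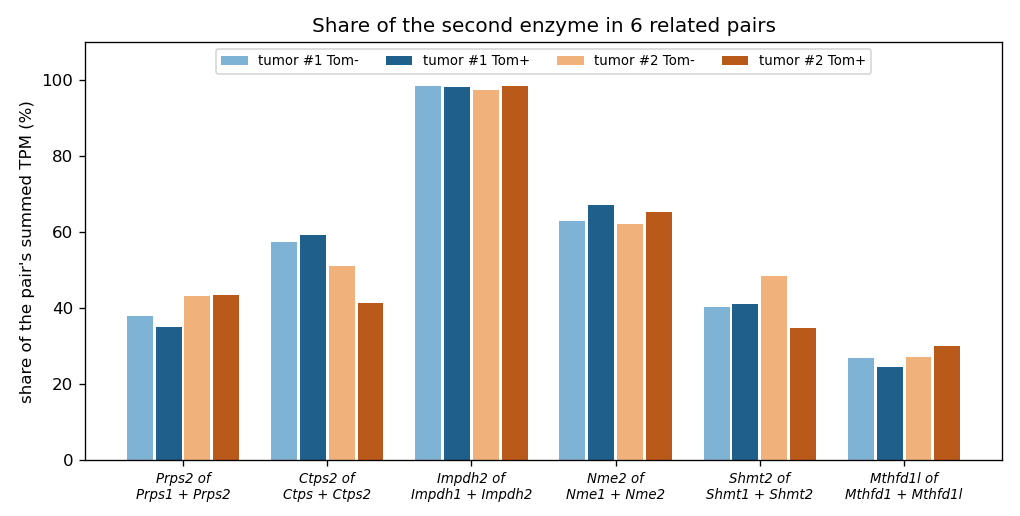
Share of the second-named gene in the summed TPM of 6 related pairs (percent, from 0), 1 bar per library. Impdh2 bars stand at 97.6% to 98.5%, and the Ctps2 bars range from 41.4% to 59.4%.

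The enzymes of neighboring pathways were examined in the same way. Among 18 salvage enzymes, kinases and transporters, 0 had a higher and 2 a lower level in Tom+ than in Tom- cells with an unadjusted p-value under 0.05, against 2.04% and 2.64% of all tested genes, and neither passed after adjustment. Adk, adenosine kinase, was at 74.6, 50.1, 54.5 and 36.2 TPM, lower in Tom+ cells of both tumors by a mean of 0.57 on the log2 scale (SE 0.14, unadjusted p = 0.0218 by limma). Tk2, the mitochondrial thymidine kinase, was at 22.3, 8.07, 20.4 and 13.1 TPM, with a difference of -0.98 (SE 0.27, unadjusted p = 0.0323 by limma). Nme6, a further diphosphate kinase of this list, differed by -0.59 (SE 0.20). Between the tumors, 8 of the 18 were lower and 6 higher in tumor #2, against 23.7% and 44.8% of all tested genes.

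Of 18 nucleotide breakdown and pool-cleaning genes, 11 passed the filter, and 0 passed an unadjusted p-value of 0.05 in limma. Nudt1, which hydrolyzes oxidized dGTP, was at 107, 57.9, 78.7 and 62.8 TPM, a difference of -0.60 (SE 0.20, unadjusted p = 0.0547 by limma). Ampd3, an AMP deaminase, was low at 1.97, 1.49, 5.58 and 2.68 TPM. Of these 11 genes, 3 were lower and 4 higher in tumor #2, against 23.7% and 44.8% of all tested genes, and 5 were lower under trimmed-mean scaling or quantile normalization. Their median tumor difference relative to all tested genes was -0.28, and -0.33 to -0.23 over the scalings.

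Of 18 other folate and glycine genes, 14 passed the filter, and 0 passed an unadjusted p-value of 0.05 in limma. In tumor #2, 5 of the 14 were lower and 4 higher, against 23.7% and 44.8% of all tested genes. Fpgs, which adds glutamates to folate, was at 26.2, 32.9, 19.0 and 28.8 TPM (Tom difference 0.45, SE 0.17, unadjusted p = 0.0712 by limma), and Mtr, methionine synthase, at 14.1, 15.8, 7.08 and 14.3 TPM.

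Of 12 other polyamine genes, 8 passed the filter, with 0 calls. In tumor #2, 3 of the 8 were lower and 2 higher, against 23.7% and 44.8% of all tested genes. Amd1, which makes the aminopropyl donor, was at 73.1, 56.9, 64.8 and 60.7 TPM, and Paox, a polyamine oxidase, at 3.54, 2.24, 3.54 and 3.41 TPM. Of 10 genes around ATF4, the factor known to drive serine synthesis genes, 6 passed the filter with a single identifier, and 0 were called. In tumor #2, 3 of the 6 were lower and 2 higher, against 23.7% and 44.8% of all tested genes. Atf4 itself was at 71.0, 90.6, 62.3 and 64.8 TPM and Cebpb at 0.201, 0.487, 1.13 and 1.41 TPM. Asns, asparagine synthetase, was picked after its values were seen. It was at 0.395 and 0.682 TPM in tumor #1 against 33.8 and 27.7 in tumor #2, the opposite order to Psat1. Eif4ebp1, also picked after its values were seen, was at 25.2, 24.7, 10.8 and 11.3 TPM, the same order as Psat1.

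Some levels depend on how reads were split between near-identical sequences. More than 10% of the 60-base words of a gene's transcripts were shared with another annotated gene for 7 of the 36 (Nme2, Phgdh, Impdh2, Odc1, Sms, Gart and Nme1, from 46.5% down to 10.8%), and under 1% for 18. Copies in the annotation were found for 10 of the 36. Not searched were Dhodh, Pfas, Adsl, Tyms and Rrm1, whose words occur in over 25 other genes. The copy of Rrm2, a pseudogene of 193 bases, was listed at 1442, 1363, 702 and 726 TPM, above Rrm2 itself and in the same tumor order. The pair of Gmps pseudogenes summed to 42.4, 40.9, 37.6 and 39.9 TPM, above Gmps. The copy of Tk1, a pseudogene of 165 bases, was listed at 23.2, 72.1, 15.2 and 92.5 TPM, higher in Tom+ cells of both tumors. Tk1 with its copy summed to 48.6, 101, 44.9 and 121 TPM, whereas Tk1 alone differed little between Tom+ and Tom- cells. TPM of a short copy overstates its reads, so these sums are not read counts. With copies added to the gene, the tumor #2 to tumor #1 ratio was 0.507 for Rrm2, 0.970 for Gmps and 0.574 for Sms. That of Prps1 went from 0.912 to 1.09, so its order between the tumors turned when its copy Prps1l3 was added. In all, 22 of the 36 were lower and 5 higher in tumor #2. Over all tested genes, without adding copies, 23.7% were lower and 44.8% higher.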

How the data were processed

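RNA of 4 sorted libraries was sequenced as single reads of 60 bases. According to the methods and the submitters' processing notes, reads came through CASAVA 1.8, were trimmed with Cutadapt and quantified against mouse transcripts of GRCm38 with Salmon 1.9. The authors deposited TPM per gene, 34866 genes in 4 columns, each summing to 1000000. The methods name an annotation release for the mapping, but whether it is the release behind the table is uncertain. How transcripts were summed to genes is uncertain too. GENCODE M21 held 34652 of the identifiers. TPM keeps no depth, so counting error is not given, and the edgeR test of the study, which needs counts, was not run.

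The test was run on log2(TPM + 1), which makes changes of low genes look smaller, with limma 3.58.1 in R 4.3.3 (tumor block, variance trend, prior degrees of freedom 2.21, Benjamini-Hochberg threshold 0.05). The tumor is a block because libraries of a number come from the same mouse. Replicates are these 2 mice. Of the methods, only the limma fit was tested on simulated data, for the sign and mean error of known changes added to them.

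The 36 genes, the other lists and the tests were chosen with earlier results of these data known. Named in full were genes with an unadjusted p-value below 0.05, the 8 largest Tom and the 8 largest tumor differences, the 6 highest and 6 lowest levels, and related pairs, 28 in all. The other 8 are given by range, and Adss, Dck, Asns and Eif4ebp1 were named after their values were seen. In other lists, genes with an unadjusted p-value below 0.05 and the 2 largest changes were named. Shared words and copies were read from GENCODE M21 transcripts, with a copy sharing at least 40 words of 60 bases. A gene overlapping on the opposite strand was not counted as a copy. Genes with words in over 25 other genes were not searched for copies. Python 3.11.15, pandas 2.3.3, numpy 2.4.6 and matplotlib 3.10.9 were used. Alternatives were no tumor block, other pseudocounts (0.1 and 0.5), filters, scalings and subsets, and leaving out a tumor or a library. Additions of copies and the removal of genes with shared words were chosen after seeing the data.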

Additional observations from a re-analysis of the deposited data

Results flagged for a closer look

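For 2 of the 36 genes, Tom+ and Tom- cells differed by at least 0.2 on the log2(TPM + 1) scale in each tumor, in opposite directions. Impdh1, the minor IMP dehydrogenase, was 0.23 higher in Tom+ cells of tumor #1 and its difference was -0.48 in tumor #2. Mthfd2, the mitochondrial folate enzyme, was 0.22 higher in Tom+ cells of tumor #1 and its difference was -0.26 in tumor #2. Both kept opposite signs under all 4 other scalings. The difference between the tumors was not tested, since each tumor has 1 library of each kind.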

How the results depend on the processing

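In limma, 0 genes passed the adjusted p-value of 0.05 and 0 of the 36 the unadjusted one under every alternative run, while 113 to 638 of all tested genes passed the unadjusted one, against 530 as reported. Without the replicate block, in which the tumor pairs the libraries, 0 genes passed and 140 had an unadjusted p-value below 0.05, so the pairing changed no adjusted call. The number of genes higher in tumor #2 was 1 after trimmed-mean scaling and 2 after quantile normalization, in place of 4. The median tumor difference was -0.73 with trimmed-mean scaling, which also shifted all genes. With nuclear protein-coding genes only, 14 in place of 9 genes were above Tom- cells in each tumor and the median Tom difference was 0.045 in place of -0.01. With 1 tumor or library left out, the median Tom difference ranged from -0.26 to 0.19, the median tumor difference from -0.52, without tumor #2 Tom- cells, to -0.33, the number of genes higher in tumor #2 from 5 to 7 (7 without tumor #1 Tom+ or without tumor #2 Tom- cells) and lower from 24 to 27. The counts of genes higher and lower in tumor #2 can only stay or rise when a library is dropped. They are therefore no check on the reported counts, and the share of all tested genes was not taken. With a tumor left out no test can be made. With a library left out the tumor difference enters the Tom difference, and the lone sample is assumed to vary like the others. With a tumor or library left out, the Tom difference changed sign and moved by over 1 SE of the reported fit, in some cases to a value near 0, for Ctps2 (-0.72 to 0.26), Dut (-0.43 to 0.60), Impdh1 (-0.48 to 0.23), Mthfd1 (-0.63 to 0.35), Mthfd1l (-0.47 to 0.22), Mthfd2 (-0.53 to 0.49), Nme1 (-0.47 to 0.037), Nme2 (-0.30 to 0.33), Odc1 (-0.45 to 0.34), Paics (-0.29 to 0.32), Prps2 (-0.21 to 0.13), Psat1 (-0.38 to 0.58), Psph (-0.56 to 0.12), Rrm1 (-0.33 to 0.77), Rrm2 (-0.59 to 0.49), Shmt1 (-0.026 to 0.58), Shmt2 (-0.28 to 0.10), Tyms (-0.43 to 0.61) and Umps (-0.61 to 0.36). Under the other alternatives 13 of 280 differences of single genes changed sign, in 6 genes and to at most 0.05 in size.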
